A study of Mus musculus with 8 samples.

Results

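NF-kB transcription factors, with the proteins that hold them in check, switch them on and are induced by them, were followed here through 36 genes in mouse CD4+ T cells given dimethyl succinate. The 36 were taken by symbol from the deposited table of 54532 genes, and all 36 were found. They comprise 5 NF-kB subunits, 6 IkB proteins, 6 kinases or kinase subunits, 9 receptor adaptors and ubiquitin ligases, 6 genes of linear ubiquitin and its removal, and 4 survival or surface targets. Splenic CD4+ T cells of wild-type mice received vehicle, which the header of the table calls DMSO, in 4 libraries, or dimethyl succinate, a cell-permeable ester of the mitochondrial metabolite succinate, in 4 libraries. Exposure lasted 3 days. The dose, the age, sex and strain of the mice, and whether the T cell receptor was engaged in culture are not given in the sources used here. Nothing in them says whether replicates were separate mice or separate cultures, so the p-values reflect only how these samples scatter, and that scatter may be technical.

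In resting cells NF-kB dimers are kept in the cytoplasm by IkB proteins. Signals from the T cell receptor, passed on by BCL10 and MALT1, or from receptors of the tumour necrosis factor family, passed on by TRAF adaptors, activate the IkB kinase complex, and IkB is then degraded. The freed dimers enter the nucleus and induce, among many others, their own inhibitors, so that the genes for IkB alpha, TNFAIP3 and TRAF1 are both parts and products of the pathway. A slower, alternative branch runs through the kinase MAP3K14 and the processing of the NFKB2 precursor. These proteins are controlled largely by phosphorylation, ubiquitin and movement into the nucleus, none of which RNA sequencing measures.

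NF-kB dimers bind a DNA element of 10 bases, the kappaB decamer, which opens with a run of G and ends with a run of C. The 250 bases before the RefSeq start of each gene (GRCm38.p6) were searched on both strands, and 29 of the 36 genes matched the RefSeq promoter table. The others were Nfkb1, Relb, Nfkbiz, Ikbkb, Map3k8, Malt1 and Cd83. A decamer was present in 10 of the 29 in at least 1 of their windows (34.5%), against 4.46% of 27025 genes and 3.9% of all 32851 windows. The 10 were Bcl10, Cyld, Nfkb2, Nfkbia, Nfkbid, Nfkbie, Rel, Tnfaip3, Tnip1 and Traf3. The only match of Bcl10 lies in a window that falls wholly within annotated exons of that gene. Here 4 promoters of genes described below are shown as examples, 3 of them with a decamer, in capitals, and that of Traf1 without one. In the first the match lies 29 bases before the start. The capitals of Rel hold 2 matches that overlap, and those of Tnip1 hold 3. All 4 lie on the minus strand, at chr12:55492648-55492897, chr11:23770970-23771219, chr11:54962941-54963190 and chr2:34961773-34962022.
Nfkbia: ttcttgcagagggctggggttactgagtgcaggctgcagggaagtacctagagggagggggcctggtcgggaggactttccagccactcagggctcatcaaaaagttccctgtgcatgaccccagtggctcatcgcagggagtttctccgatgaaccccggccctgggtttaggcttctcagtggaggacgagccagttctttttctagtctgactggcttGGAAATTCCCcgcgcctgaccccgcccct
Rel: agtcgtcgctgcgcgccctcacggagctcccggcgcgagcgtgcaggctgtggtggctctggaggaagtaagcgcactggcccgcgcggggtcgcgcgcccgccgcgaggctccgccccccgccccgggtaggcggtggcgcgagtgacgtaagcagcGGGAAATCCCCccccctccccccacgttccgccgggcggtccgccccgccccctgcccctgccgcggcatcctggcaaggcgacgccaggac
Tnip1: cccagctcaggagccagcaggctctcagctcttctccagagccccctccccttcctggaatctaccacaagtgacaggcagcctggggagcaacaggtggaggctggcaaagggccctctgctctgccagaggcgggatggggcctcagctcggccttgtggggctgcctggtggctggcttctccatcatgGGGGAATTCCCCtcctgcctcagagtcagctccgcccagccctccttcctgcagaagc
Traf1: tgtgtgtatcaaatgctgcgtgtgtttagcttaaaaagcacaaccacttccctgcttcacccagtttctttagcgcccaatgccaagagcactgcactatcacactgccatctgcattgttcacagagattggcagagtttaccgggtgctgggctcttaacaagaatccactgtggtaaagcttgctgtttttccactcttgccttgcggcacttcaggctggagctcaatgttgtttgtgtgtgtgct

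A match describes the letters only. Among the other matches, Nfkb2 held GGGAATTCCC at 39 bases before a start and Tnfaip3 held GGAAATCCCC at 12. Exons of the same gene in GENCODE M21 cover all 250 bases of that Nfkb2 window and 110 of that Tnfaip3 window. In the deposited table Nfkb2 starts only after that window, at base 46304737. Nfkbid held GGGACTTCCC at 226 bases before an internal start, and nothing in the window of its first start. In the comparison of the groups described below, 6 of the 10 genes with a decamer and 10 of the 19 without had a log2 fold change above 0. Over the other genes tested it was 51.9% of 520 with a decamer and 49.6% of 9181 without. Leaving out vehicle replicate 4, a library described next, it was 7 of the 10 and 13 of the 19, against 52.5% and 50.6% of the other genes. Genes with and without the decamer among the 36 thus lay on both sides of 0.

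Total counts ran from 13407295 to 16688854 per library, with means of 14505900 ± 994852 in the vehicle group and 15792200 ± 866300 in the other (SD, n = 4), with an exact two-sided permutation p of 0.143, where 4 against 4 cannot go below 0.0286. Vehicle replicate 4 stood apart. Its mean correlation with the other libraries was 0.986 against 0.993 to 0.994 for the rest, and mitochondrially encoded RNA made up 0.252% of its counts against 1.16% to 1.48%. The 7 T cell markers summed to 1699 CPM (counts scaled to the size of the library) there and to 2071 to 2166 in the other 7 libraries. They did not move together. Cd3d was highest there, at 207 CPM against 160 to 185, while Cd3e, Cd3g, Cd4, Trac, Lck and Cd28 were lowest in vehicle replicate 4. Log2 fold changes of the 36 genes are therefore given with and without it, and the part of these features in the results was not tested. Markers of other cells were low: 7 B cell genes summed to 4.16 to 5.38 CPM under vehicle and 4.83 to 6.09 under dimethyl succinate, 6 monocyte genes to 1.42 to 2.05 and 2.11 to 3.48, and 7 dendritic cell genes, with Siglech and Cd209a at 0, to 9.10 to 12.9 and 11.5 to 12.7. The 5 neutrophil genes reached at most 0.367 CPM, and the 4 natural killer cell genes summed to 1.253 to 2.61. The 5 stromal and endothelial genes, with Cdh5 at 0, summed to 28.1 to 39.5, of which Pecam1 made 27.2 to 39.0. The 5 erythroid and platelet genes summed to 50.4 CPM in vehicle replicate 4 and 22.5 to 29.8 elsewhere, and Cd8a and Cd8b1 together to 5.50 to 5.98 under vehicle and 5.85 to 7.54 under dimethyl succinate. In bulk RNA, fewer cells of a type and less RNA per cell cannot be told apart.

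The pathway was amply transcribed in both groups. Levels are compared between genes as FPKM, fragments per kilobase of gene scaled to library size, from the deposited table. The median level of the 36 genes was 24.6 FPKM against 6.06 for all genes tested, and 35 of the 36 lay above the latter. Nfkbia, which encodes IkB alpha, the inhibitor resynthesised after each round of activation, was highest, at 298 ± 20.8 FPKM with vehicle and 295 ± 17.2 with dimethyl succinate (SD, n = 4). Nfkb2, the precursor subunit of the alternative branch, followed at 155 ± 20.96 and 161 ± 5.69, then Nfkb1, the precursor subunit of the canonical branch, at 88.8 ± 9.13 and 91.0 ± 2.001, and Rela, the main transactivating subunit, at 70.5 ± 6.77 and 76.6 ± 3.41. The steps from Nfkbia to Nfkb2 and from Nfkb2 to Nfkb1 exceeded the spread between libraries, which does not cover error in the gene length used. In counts not divided by length Nfkb1 lay above Nfkb2, at 1075 against 510 CPM under vehicle. Their order in FPKM thus rests on the listed lengths of 12061 and 3289 bases.

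Relb, the partner of the processed NFKB2 protein, and Rel, the subunit typical of lymphocytes, were lower, at 33.7 ± 1.10 and 23.9 ± 0.731 FPKM under vehicle. Below the top 3, most genes followed one another in steps smaller than their spread: Tnip1 at 61.3 ± 2.82 and Rbck1 at 62.4 ± 2.48 under vehicle did not differ beyond it, nor did Birc3 at 46.5 ± 4.99, Icam1 at 45.4 ± 7.01 and Nfkbid at 44.3 ± 5.62. Of the kinase complex, Chuk lay in the middle of the order and Ikbkg and Ikbkb near its end. They stood at 24.6 ± 0.622, 10.6 ± 1.11 and 7.75 ± 0.430 FPKM under vehicle, and Traf5 was lowest, at 3.42 ± 0.334. The place of Ikbkb rests on its listed gene length, 19078 bases against 5087 for Chuk. In counts not divided by length Ikbkb lay above Chuk, at 148 against 126 CPM under vehicle. The plot of levels shows how much wider the steps at both ends are than those in the middle.

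**Figure D1:**
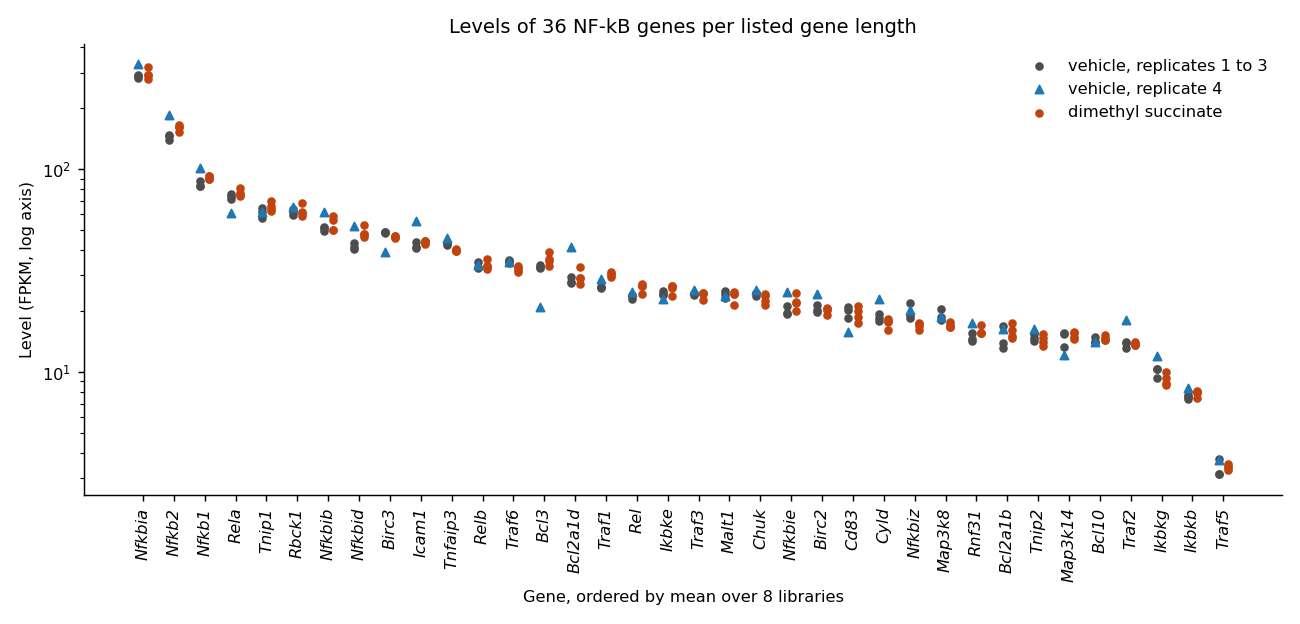
Level of each of the 36 genes in FPKM (log axis) in every library, ordered by the mean over 8 libraries. Nfkbia, Nfkb2 and Nfkb1 lead and Traf5 is lowest, and vehicle replicate 4 (triangles) lies off the other vehicle libraries for Bcl3, Bcl2a1d and Birc3.

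With all 8 libraries no NF-kB gene passed the threshold in edgeR's quasi-likelihood test. Of 13981 genes tested 0 passed an adjusted p of 0.05 (0% called), while 805 had an unadjusted p below 0.05, and DESeq2 and limma-voom called 4 and 0. All 36 NF-kB genes were tested, and their smallest adjusted p was 0.778. Differences were small in either direction: the 95% interval excluded a change of 1.5-fold for all 36, and of the 8915 genes of at least 10 CPM it did so for 8582. Of the 36, 20 lay above 0 (background 49.6%), with a median log2 fold change of 0.011 against -0.0011 over all genes tested. At an unadjusted p below 0.05 there were 6 (16.7%, background 5.76%), 2 higher under dimethyl succinate (background 2.93%) and 4 lower (background 2.83%).

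The 2 higher ones were Traf1 and Rel, and the 4 lower ones Nfkbiz, Tnfaip3, Map3k8 and Ikbkg. The libraries of the 2 groups did not overlap for 6 genes (16.7%, background 4.82%), Traf1 and Bcl3 being higher (background 2.5%) and Nfkbiz, Tnfaip3, Map3k8 and Traf6 lower (background 2.32%). Without vehicle replicate 4, Traf1 alone of the 36 passed the threshold, among 28 of 14232 genes (0.197%). In that comparison 11 of the 36 had an unadjusted p below 0.05 (30.6%, background 8.54%), 7 higher (background 4.43%) and 4 lower (background 4.12%). The groups were separate for 12 (33.3%, background 9.63%), 7 higher (background 4.99%) and 5 lower (background 4.64%). The median was 0.038, and 23 lay above 0 (background 50%). The 36 were chosen with earlier results of these data known, so these shares are a description.

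**Figure D2:**
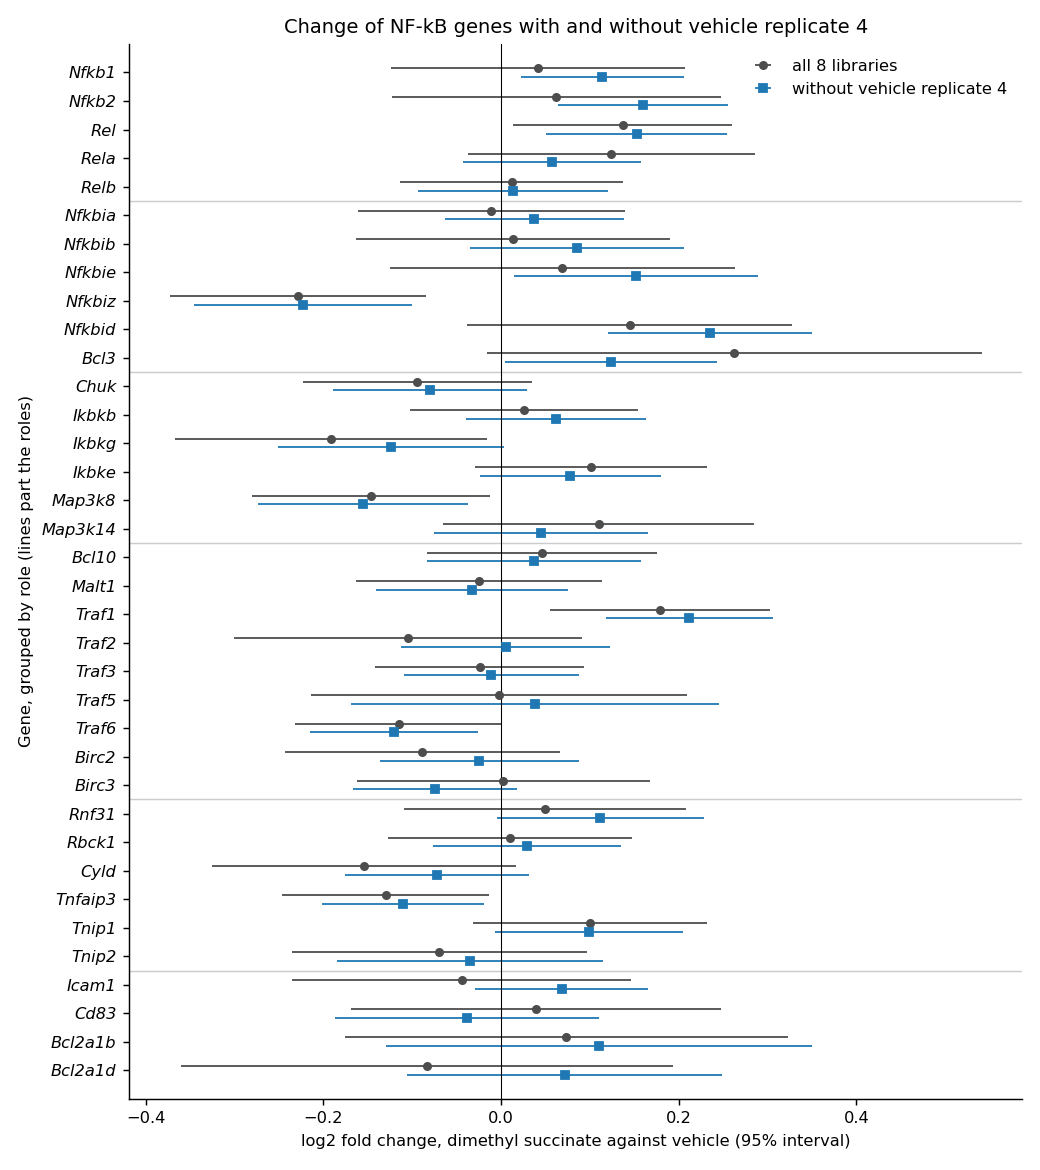
Log2 fold change of each gene, dimethyl succinate against vehicle, with its 95% interval, with all 8 libraries (circles) and without vehicle replicate 4 (squares). Intervals are mostly narrower without that library, and those of Traf1, Rel, Nfkbiz, Tnfaip3 and Map3k8 lie to one side of 0 in both.

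Subunits lay above 0 in 5 of 5 cases (background 49.6%), none past the threshold. Their median log2 fold change was 0.062, or 0.11 without vehicle replicate 4. Relb turned to -0.016 when dimethyl succinate replicate 1 was left out. Rel stood at 178, 173, 181 and 185 CPM in vehicle replicates 1 to 4 and at 184, 203, 199.5 and 201 in dimethyl succinate replicates 1 to 4. Dimethyl succinate replicate 1 lay below vehicle replicate 4, and the other 3 above every vehicle library. The log2 fold change came to 0.14 ± 0.057 (SE), with an unadjusted p of 0.0323, and 0.15 ± 0.049 without vehicle replicate 4.

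Nfkb1 stood at 1008, 1002, 1058 and 1231 CPM under vehicle and 1131, 1081, 1087 and 1127 under dimethyl succinate. Its highest library was vehicle replicate 4, and the other 3 vehicle libraries lay below all 4 of the dimethyl succinate group. The log2 fold change was 0.042 ± 0.077 (SE), and 0.11 ± 0.045 without that library, with an adjusted p of 0.447 in edgeR's test. Nfkb2 showed the same order, at 461, 484, 485 and 610.0 CPM against 549.7, 537, 505 and 538. Vehicle replicate 4 was again above all others, and the log2 fold change moved from 0.062 ± 0.085 to 0.16 ± 0.046 without it (adjusted p of 0.21 in edgeR's test). In the GENCODE M21 annotation Nfkb2 shares 18.1% of its 4584 exon bases with AC114539.1 and Psd on the opposite strand. The deposited table lists 3289 bases for it, with another start and end, so the share in the gene as counted is not known. Whether strand was used in counting is not given in the sources used here.

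Rela went the other way in that library, at 202, 196, 207 and 165 CPM under vehicle against 223, 209.6, 203 and 202. Its log2 fold change was 0.12 ± 0.074 (SE) with vehicle replicate 4 and 0.057 ± 0.049 without. Relb, at 131 ± 4.12 and 132 ± 6.07 CPM (SD, n = 4), had a log2 fold change of 0.012 ± 0.058, or 0.013 ± 0.052 without that library, and its libraries overlapped fully. The deviation of single libraries from the mean is plotted below for all 36 genes, where the triangle of vehicle replicate 4 is the outermost point in many rows.

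**Figure D3:**
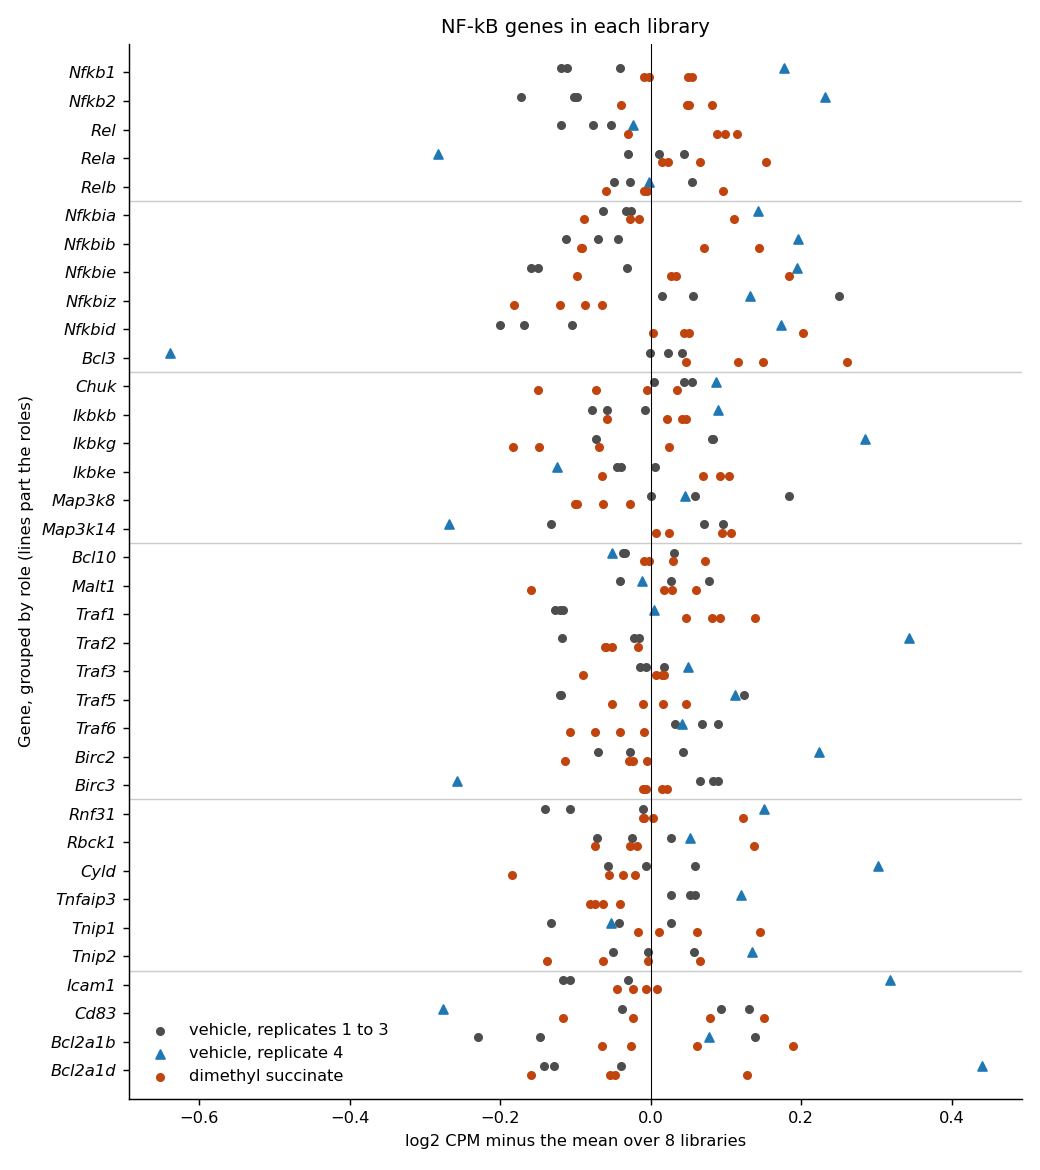
Log2 CPM of each gene in each library minus the mean over the 8 libraries, grouped by role. Vehicle replicate 4 (triangles) is the highest library for 17 of the 36 genes and the lowest for 7.

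Vehicle replicate 4 was the highest or lowest of the 8 libraries for 24 of the 36 genes (66.7%), against 58.3% of all genes tested. The next most frequent was dimethyl succinate replicate 1, at 13 of the 36 (36.1%, against 33.1%). The median coefficient of variation of the 36 genes was 9.25% over the 4 vehicle libraries, 3.42% over vehicle replicates 1 to 3 and 4.52% under dimethyl succinate. For 8915 genes of at least 10 CPM these were 9.23%, 4.58% and 6.24%. The NF-kB genes thus varied about as much as other genes did when that library was included.

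IkB proteins divided. The atypical member Nfkbiz, which encodes the nuclear IkB zeta, a co-activator of a subset of NF-kB targets, lay lower in every dimethyl succinate library. It stood at 110.1, 96.2, 93.5 and 101 CPM under vehicle and at 85.2, 87.1, 88.5 and 81.6 under dimethyl succinate. Its log2 fold change was -0.23 ± 0.067 (SE), a fold of 0.853, with an unadjusted p of 0.00451, the smallest of the 36, and an adjusted p of 0.778 in edgeR's test. Without vehicle replicate 4 it was -0.22 ± 0.060 (adjusted p of 0.138 in edgeR's test). The gene lies on the minus strand at chr16:55811375-55838899 and shares no exon base with another annotated gene.

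Nfkbid, which encodes another nuclear IkB that takes part in the maturation of regulatory T cells, lay on the other side of 0. It stood at 102, 95.2, 97.4 and 123 CPM under vehicle and at 126, 113, 109.6 and 113 under dimethyl succinate. Vehicle replicate 4 fell among the dimethyl succinate libraries and the other 3 vehicle libraries below all of them. The log2 fold change came to 0.14 ± 0.084 (SE), and 0.23 ± 0.056 without that library, where the adjusted p was 0.0833 in edgeR's test. Bcl3, a nuclear IkB that binds dimers of the processed precursors, stood at 82.4, 81.0, 83.4 and 52.0 CPM under vehicle and at 97.1, 89.9, 87.9 and 83.7 under dimethyl succinate. The groups were separate, though vehicle replicate 3 and dimethyl succinate replicate 4 nearly met, and vehicle replicate 4 lay far below the rest. The log2 fold change of 0.26 ± 0.128 (SE) was 0.12 ± 0.058 without that library. Bcl3 shares 6.51% of its exon bases with Gm16175 on the opposite strand.

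Among the IkB proteins of the cytoplasm, Nfkbia stood at 459, 469, 471 and 529 CPM under vehicle and 518, 470.1, 451 and 474 under dimethyl succinate, with log2 fold changes of -0.011 ± 0.069 (SE) and, leaving out vehicle replicate 4, 0.038 ± 0.049. The groups overlapped, and the 95% interval ran from -0.16 to 0.14. Nfkbib and Nfkbie, which encode IkB beta and epsilon, had log2 fold changes of 0.014 ± 0.081 and 0.069 ± 0.090, or 0.086 ± 0.058 and 0.15 ± 0.067 without that library. All 3 were highest in vehicle replicate 4. Nfkbib shares 16.4% of its exon bases with Ccer2 and Sirt2 on the opposite strand.

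**Figure D4:**
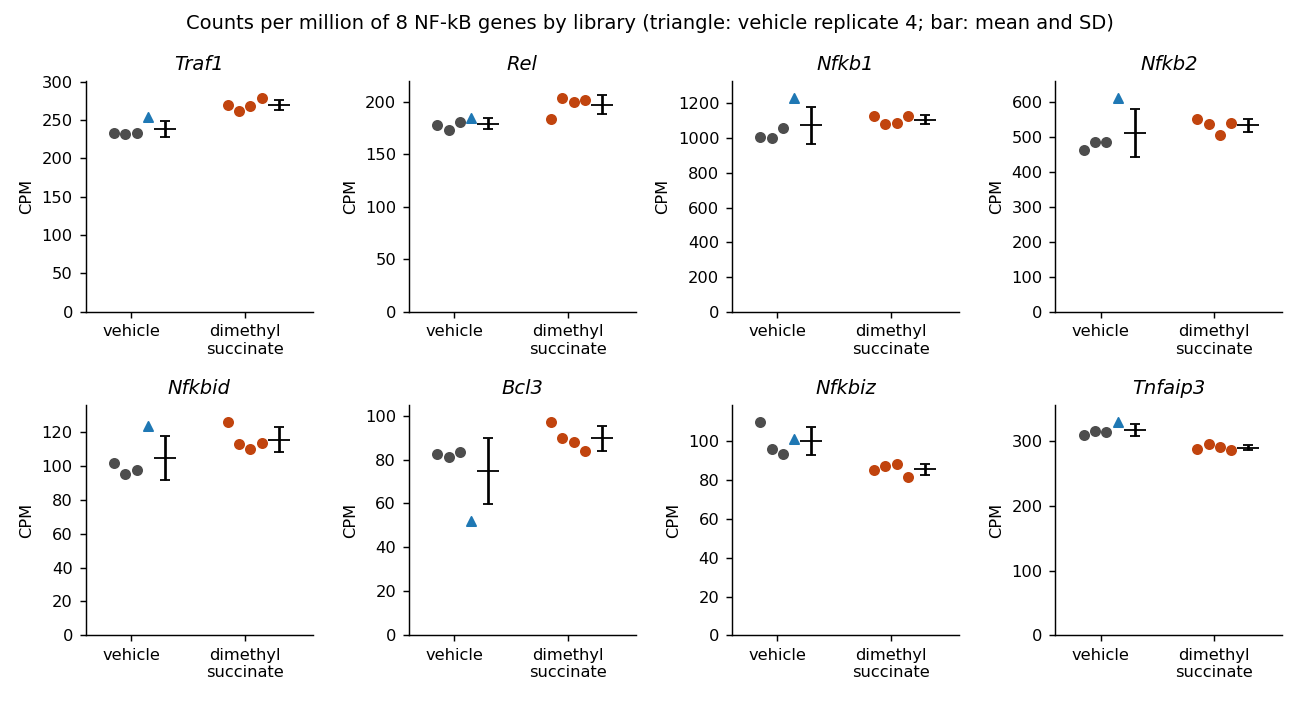
CPM of 8 genes in each library, from 0, with the mean and SD of each group (n = 4) beside the points. The groups are separate for Traf1, Bcl3, Nfkbiz and Tnfaip3, and vehicle replicate 4 (triangle) lies above the other vehicle libraries for Nfkb1, Nfkb2 and Nfkbid and below them for Bcl3.

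Kinases lay on both sides of 0, 3 above and 3 below. Map3k8, a kinase that is bound to the NFKB1 precursor and feeds the ERK pathway, stood at 84.7, 92.4, 81.4 and 84.0 CPM under vehicle and at 75.8, 79.8, 76.0 and 77.8 under dimethyl succinate. Every dimethyl succinate library lay below every vehicle library, and the log2 fold change was -0.15 ± 0.062 (SE), or -0.16 ± 0.058 without vehicle replicate 4. The unadjusted p-values were 0.0352 and 0.012.

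Ikbkg, the scaffold subunit of the IkB kinase complex, stood at 84.9, 85.0, 76.3 and 97.7 CPM under vehicle against 72.4, 76.5, 81.6 and 70.7. The groups overlapped, and the log2 fold change of -0.19 ± 0.081 (SE), with an unadjusted p of 0.0347, was -0.12 ± 0.062 without vehicle replicate 4, its highest library. Ikbkg shares 5.15% of its exon bases with G6pdx on the opposite strand. The catalytic subunits Chuk and Ikbkb had log2 fold changes of -0.094 ± 0.060 and 0.026 ± 0.059, which were -0.080 ± 0.053 and 0.062 ± 0.049 with vehicle replicate 4 left out. Ikbke, a related kinase of antiviral signalling, was at 0.10 ± 0.060, or 0.078 ± 0.050 without that library. Map3k14, the kinase of the alternative branch, was at 0.11 ± 0.081, or 0.045 ± 0.059 without vehicle replicate 4. The libraries of the 2 groups overlapped for all 4 of these genes.

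Among the adaptors, Traf1, a TRAF protein without the RING domain of its relatives that is itself induced by NF-kB, had all 4 dimethyl succinate libraries above the vehicle ones. Its levels were 234, 232, 233 and 254 CPM under vehicle and 269.9, 262, 268 and 279 under dimethyl succinate. The log2 fold change was 0.18 ± 0.057 (SE), a fold of 1.13, with an unadjusted p of 0.00794 and an adjusted p of 0.802 in edgeR's test. Without vehicle replicate 4 Traf1 rose by 0.21 ± 0.046, with an adjusted p of 0.0461 in edgeR's test. Vehicle replicates 1 to 3 lay within 2 CPM of one another there, a coefficient of variation of 0.357%. With any other library left out it did not pass. The gene lies on the minus strand at chr2:34941750-34961772, and none of its exon bases is shared with another annotated gene.

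Traf6, the ligase that links receptor complexes to the kinase complex, stood at 284, 280.3, 273 and 275 CPM under vehicle against 248, 259.8, 266 and 254. The groups were separate, with a log2 fold change of -0.12 ± 0.054 (SE) and an unadjusted p of 0.0527, which were -0.12 ± 0.046 and 0.0147 with vehicle replicate 4 left out. Traf2, Traf3 and Traf5 had log2 fold changes of -0.10 ± 0.091, -0.024 ± 0.054 and -0.0020 ± 0.098. Without vehicle replicate 4 they were 0.0052 ± 0.057, -0.011 ± 0.048 and 0.038 ± 0.101, so that Traf2 and Traf5 turned direction. For Traf2 that library at 92.5 CPM lay above the 67.2 to 72.2 of the other 7 libraries. Traf5 rested on few counts, at 14.4 to 17.05 CPM.

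Bcl10 and Malt1, which carry the signal of the T cell receptor, had log2 fold changes of 0.046 ± 0.060 and -0.025 ± 0.064 (SE), or 0.037 ± 0.058 and -0.032 ± 0.053 without vehicle replicate 4. Birc2 and Birc3, which encode the cIAP ubiquitin ligases, were at -0.089 ± 0.071 and 0.0025 ± 0.076, and Birc2 was at -0.024 ± 0.054 without vehicle replicate 4, its highest library. Birc3 stood at 248, 249, 245 and 196 CPM under vehicle against 237, 233, 232 and 236. Vehicle replicate 4 was below all other libraries and the remaining 3 vehicle libraries were above them, so that the value near 0 became -0.074 ± 0.045 without that library. Birc3 shares 7.38% of its transcript windows of 50 bases with other genes, Gm7019 and Birc2 among them.

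Among the genes of ubiquitin editing, Tnfaip3, the deubiquitinase that ends NF-kB signalling and is itself induced by it, lay lower in every dimethyl succinate library. It stood at 309.5, 317, 315 and 330.4 CPM under vehicle and at 289, 295, 291 and 287 under dimethyl succinate. The log2 fold change was -0.13 ± 0.054 (SE), a fold of 0.914, with an unadjusted p of 0.0318, and -0.11 ± 0.044 without vehicle replicate 4, where the adjusted p was 0.472 in edgeR's test. Tnfaip3 lies on the minus strand at chr10:19000910-19015657 and shares no exon base with another annotated gene. Traf1 and Tnfaip3, which are both induced by NF-kB, thus stood on opposite sides of 0, with and without that library.

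Cyld, another deubiquitinase that restrains the pathway, stood at 244, 233, 225 and 288 CPM under vehicle against 206, 230.5, 225 and 228. Its log2 fold change of -0.15 ± 0.079 (SE) was -0.072 ± 0.050 without vehicle replicate 4, its highest library. Tnip1, which encodes a partner of the TNFAIP3 protein, stood at 206, 219, 229.9 and 217 CPM against 249, 227, 223 and 235, a log2 fold change of 0.10 ± 0.061 with overlapping groups, or 0.099 ± 0.051 without that library. Tnip2 was at -0.069 ± 0.077, or -0.035 ± 0.073 without it. Rnf31 and Rbck1, subunits of the complex that makes linear ubiquitin chains, were at 0.049 ± 0.073 and 0.010 ± 0.063, or 0.11 ± 0.057 and 0.029 ± 0.051 without that library. Of these 6 genes, 3 lay above 0 and 3 below, with or without it.

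The targets at the cell surface and in survival showed no separation. Icam1, an adhesion ligand, stood at 181, 179.6, 191 and 243 CPM under vehicle against 194, 192, 189 and 196, with log2 fold changes of -0.044 ± 0.088 (SE) and, leaving out vehicle replicate 4, 0.068 ± 0.047. Cd83, a surface protein of activated lymphocytes and dendritic cells, stood at 52.6, 54.0, 48.0 and 40.7 CPM against 48.5, 54.7, 45.5 and 52.1. Its log2 fold change was 0.040 ± 0.096, or -0.038 ± 0.072 without that library, beside the summed B cell and dendritic cell markers given above, whose part in it was not tested. For both genes the direction turned with that library. Icam1 shares 11.7% of its exon bases with Gm47079 on the opposite strand.

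Bcl2a1b and Bcl2a1d are near-identical copies of an anti-apoptotic gene. They share 79.2% and 79.5% of their 50-base windows with other genes, among them each other, Bcl2a1a and Gm29094, so their separate counts are uncertain. Bcl2a1b stood at 12.4 ± 1.50 and 13.1 ± 1.04 CPM and Bcl2a1d at 27.3 ± 5.65 and 25.8 ± 2.16 (SD, n = 4), with log2 fold changes of 0.074 ± 0.115 and -0.083 ± 0.128 (SE). Without vehicle replicate 4 they were 0.11 ± 0.116 and 0.072 ± 0.086, so the direction of Bcl2a1d turned as well. Summed into a single gene the value was -0.032 ± 0.110. Vehicle replicate 4 was the highest library of Bcl2a1d, at 35.7 CPM against 23.6 to 28.8.

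The authors' deposited table gave the same direction as the edgeR fit for 35 of the 36 genes, the exception being Birc3. By the authors' deposited p-values before adjustment, 7 of the 36 had a value below 0.05, the 6 that did so in the edgeR fit and Traf6. The share over all genes was not computed for these p-values. They rest on the same libraries as the edgeR fit, so the count is a description. The authors' deposited log2 fold changes were 0.17 for Traf1, -0.13 for Tnfaip3 and -0.23 for Nfkbiz.

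Other genes of the pathway lay close to 0 too. Of 39 further adaptors, kinases and ubiquitin enzymes, all tested, 26 lay above 0 with a median log2 fold change of 0.014, and 22 did so without vehicle replicate 4. A single gene was higher (background 2.93%) and none lower (background 2.83%) with an unadjusted p below 0.05, a share near that of all genes. It was Nkiras2, which encodes a Ras-like protein that binds IkB, with means of 31.5 ± 2.57 and 35.8 ± 1.74 CPM (SD, n = 4). Its log2 fold change of 0.18 ± 0.083 (SE), with an unadjusted p of 0.047, was 0.13 ± 0.074 without vehicle replicate 4, where the unadjusted p was 0.101. Of 15 receptors upstream, 13 were tested and 10 lay above 0, with a median of 0.062, and Cd27 and Tnfrsf1b, a costimulatory receptor and a receptor for tumour necrosis factor, were higher at an unadjusted p below 0.05 (background 2.93%), at log2 fold changes of 0.26 ± 0.110 and 0.13 ± 0.061 (SE). These were 0.16 ± 0.066 and 0.14 ± 0.054 without vehicle replicate 4. In that comparison 14 of the receptors were tested, with 3 higher (background 4.43%) and 1 lower (background 4.12%). The lower one, named after its values were seen, was Cd28, the main costimulatory receptor of T cells, at 486, 473, 476 and 361 CPM under vehicle against 383, 444, 437 and 416. Vehicle replicate 4 was the lowest library and the other 3 vehicle libraries lay above all 4 of the dimethyl succinate group. On the log2 scale the difference was -0.097 ± 0.093 (SE) with that library and -0.19 ± 0.050 without it, where the unadjusted p was 0.000909 and the adjusted p 0.138 in edgeR's test.

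Of 27 further target genes, 26 were tested and 16 lay above 0, with a median of 0.050. Tnfrsf4, Tnfrsf9 and Tnfrsf18 belong both to this list and to the receptors above, and are counted in both. Il2 and Ccl3, a T cell growth factor and a chemokine, had an unadjusted p below 0.05 with higher values (background 2.93%), and Irf1, an interferon regulatory factor, with lower ones (background 2.83%). For Il2 the log2 fold change was 0.31 ± 0.092 (SE), or 0.24 ± 0.062 without vehicle replicate 4, and the groups overlapped. Irf1 stood at 545, 509.7, 532 and 545 CPM under vehicle against 512, 450.3, 445 and 436, giving -0.21 ± 0.068 (SE) on the log2 scale and -0.20 ± 0.052 with vehicle replicate 4 left out. Dimethyl succinate replicate 1 lay within the vehicle range and the other 3 below it. Of the 26, Ccl3 alone passed the threshold without vehicle replicate 4, with an adjusted p of 0.00198 in edgeR's test and a log2 fold change of 0.44 ± 0.062, or 0.65 ± 0.223 with it. In that comparison the unadjusted p was below 0.05 for 9 of the 26 with higher (background 4.43%) and 2 with lower values (background 4.12%).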

How the data were processed

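Per the labels' protocols, mRNA-seq libraries came from TRIzol-extracted RNA, and the submitters' processing notes name the aligner HISAT2 2.0.5. Which counting tool, annotation, build and strand setting followed is not given in the sources used here. What the authors deposited is 1 table with raw counts per gene and library and FPKM values, per the file headers. It also holds group means deposited by the authors without a unit, used here as a normalised signal and not printed, and gene lengths. The authors' log2 fold changes, p-values and adjusted p-values are in it too, and the adjusted ones were not used here. Of 54409 gene IDs matched to GENCODE M21, 99.17% had its start or end, so coordinates are read as GRCm38. Nfkb2 and Malt1 had neither. Shares of exon bases were taken from GENCODE M21.

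Counts were tested with edgeR 4.0.16 (R 4.3.3): filterByExpr, TMM factors, robust quasi-likelihood F test, 4 against 4, Benjamini-Hochberg adjustment over all 13981 genes tested, two-sided, threshold 0.05. Standard errors follow from F, and intervals are 95%. CPM use TMM-scaled library sizes, and fold changes are dimethyl succinate against vehicle. DESeq2 1.42.0, limma-voom 3.58.1, other scalings and filters, blocking on the title number and leaving out single libraries were alternatives, and quality weights in limma-voom were added later. Scripts were tested on simulated data. No pair of libraries looked like a repeat deposit (chi-square per gene at least 2.12). The members and lists were chosen with earlier results of these data known. All 36 members are named, with the genes of 3 further lists that were among the 4 smallest unadjusted p-values and below 0.05. Cd28 was named outside this rule, from the comparison without vehicle replicate 4 and after its values were seen.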

Additional observations from a re-analysis of the deposited data

Results flagged for a closer look

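In each group of 4 libraries, the gap of an outermost library to the nearest other was divided by the range of the 4. A library was singled out when this ratio exceeded the 95% critical value of Dixon's test, which chance gives in about 1 in 20 groups. Among the 36 NF-kB genes this held for 7 of 72 groups, 5 of them for vehicle replicate 4. That library lay above the others for Nfkb2 at 610.0 CPM against 461 to 485, for Traf1 at 254 against 232 to 234 and for Bcl2a1d at 35.7 against 23.9 to 25.6. It lay below them for Bcl3 at 52.0 CPM against 81.0 to 83.4 and for Birc3 at 196 against 245 to 249. Under dimethyl succinate, Traf3 in replicate 4 stood at 169 CPM against 180.5 to 182, and Rnf31 in replicate 1 at 98.3 against 89.6 to 90.5. Outside the 36, Cd27 in vehicle replicate 4 stood at 64.8 CPM against 88.6 to 90.4, and its mitochondrially encoded share was 0.252% against 1.27% to 1.48%.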

How the results depend on the processing

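Of 614 fold changes of the 36 genes under alternatives, 573 kept their direction and their side of the threshold, 39 turned sign and 2 newly passed it. edgeR called 0 genes with all 8 libraries (805 at an unadjusted p below 0.05), limma-voom 0 (841) and DESeq2 4 (744). No low-count filter gave 6 called genes, with 1 NF-kB gene higher at an unadjusted p below 0.05. Of all 27185 genes tested there, 1595 reached that p in either direction. With the replicate block 1 gene was called, and Traf5 moved to 0.00053. Same-numbered libraries correlated at -0.014, 0.011, 0.056 and 0.13 in their deviations from the group means, and not every library correlated best with its own number, so the numbers were not taken as pairs. Quality weights in limma-voom, chosen after seeing the data, gave 40 called genes and Traf1 called at 0.20. There 7 NF-kB genes were higher at an unadjusted p below 0.05. Over all genes, 1350 of 13981 reached that p in either direction. That count was not split by direction, so it does not match the count of higher NF-kB genes. The weights turned Relb to -0.0052, Nfkbia to 0.0039, Traf5 to 0.051, Birc3 to -0.068, Icam1 to 0.049, Cd83 to -0.027 and Bcl2a1d to 0.031. Birc3 was -0.00047 with DESeq2 and -0.00046 with RLE scaling. Traf5 was 0.0050 with limma-voom, 0.0019 with upper-quartile scaling, 0.00082 with no low-count filter and 0.0025 with a minimum of 10 CPM. Bcl2a1b summed with Bcl2a1d was -0.032. With each library left out in turn, called genes ranged from 0 to 28, the latter without vehicle replicate 4. NF-kB genes higher ranged from 1 (with replicate 2 of vehicle, or replicate 2 or 3 of dimethyl succinate, left out) to 7 (without vehicle replicate 4), and those lower from 1 to 4, with 1 or 2 unless vehicle replicate 3 or 4 was the one left out. Over all genes, 585 of 14114 without dimethyl succinate replicate 3 to 1216 of 14232 without vehicle replicate 4 had an unadjusted p below 0.05. NF-kB genes whose groups did not overlap ranged from 6 to 12, with 12 without vehicle replicate 3 or 4. Over all genes that share was 4.82% with all 8 libraries and 9.63% without vehicle replicate 4. It was not computed with other libraries left out. Fold changes that turned sign ranged from -0.016 to 0.033 for Relb, -0.048 to 0.038 for Nfkbia, -0.030 to 0.086 for Nfkbib, -0.047 to 0.024 for Malt1, -0.16 to 0.0052 for Traf2, -0.034 to 0.0031 for Traf3, -0.042 to 0.039 for Traf5, -0.074 to 0.033 for Birc3, -0.033 to 0.038 for Rbck1, -0.090 to 0.068 for Icam1, -0.038 to 0.092 for Cd83 and -0.14 to 0.072 for Bcl2a1d. Causes of these changes were not tested. Traf1 ranged from 0.16 to 0.21. Depth limits Bcl2a1b and Traf5 most, at 153 to 265 counts per library.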
